A study of Mus musculus with 10 samples.

Results

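The complement components and receptors described here are 9 genes, listed by symbol: C1qa, C1qb, C1qc, C2, C3, C4b, Cfb, C3ar1 and C5ar1. The list was drawn up with earlier results of these data known. All 9 were present among the 24358 gene symbols of the deposited tables, and all 9 passed the filter on low counts in each comparison. RNA from 10 full-thickness biopsies of dorsal skin was sequenced, taken from 5 mice of the C57Bl/6 strain at 10 or 14 weeks of age. Each mouse gave 1 lesional and 1 uninvolved biopsy. Mice 2392 and 2465 are labelled IL-17C+KO, and mice 2237, 2275 and 2296 are labelled IL-17C+. Both labels name mice with an interleukin-17C transgene, a model of psoriasis-like skin inflammation, so no library comes from a mouse without the transgene. By the title of the series, KO stands for loss of Il6, which encodes interleukin-6. Neither the promoter of the transgene nor the age of single mice is stated in the labels, and age and genotype label cannot be told apart. Values of several mice of a label are given in the order 2392 and 2465 for IL-17C+KO, and 2237, 2275 and 2296 for IL-17C+.

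The libraries held 21056850 to 31072491 counts over 17790 to 18431 detected genes, and levels are given as CPM, counts scaled to library size by TMM. The limit for a gene with no count, taken as 3 counts, was 0.0965 to 0.142 CPM. By gene-level counts Il6 was higher, not lower, in the libraries labelled IL-17C+KO. It had 315 counts (mouse 2392) and 300 counts (2465) in lesional skin labelled IL-17C+KO, against 26, 18 and 69 counts in lesional skin of mice 2237, 2275 and 2296 labelled IL-17C+. In uninvolved skin Il6 had 71 and 55 counts in the libraries labelled IL-17C+KO, against 9, 4 and 6 in those labelled IL-17C+. These counts cover the gene as a whole. The labels do not state which part of Il6 was deleted, so counts from outside a deleted part cannot be told apart from those of an intact gene, and the counts do not settle the genotype. The genotype is therefore given as a label throughout. Il17c, the gene of the transgene, had 13931 to 367725 counts over the libraries. Counts from the transgene and from the native gene cannot be told apart. In lesional skin Il17c had 2346 and 10878 CPM in mice 2392 and 2465, against 10593, 10852 and 12467 CPM in mice 2237, 2275 and 2296. In uninvolved skin it had 1900 and 534 CPM under the label IL-17C+KO, against 15171, 1416 and 5395 CPM under IL-17C+. The part of the Il17c level in the complement values was not tested. Keratinocyte markers summed to 13556 to 31936 CPM and fibroblast markers to 2398 to 29181 CPM over the libraries, and the skin identity was not contradicted by either list. Skeletal muscle markers exceeded the keratinocyte sum in uninvolved skin of mice 2465 (25475 against 13556 CPM) and 2275 (20558 against 14530 CPM). In all other libraries the muscle sum was the lower of these sums. The 4 hepatocyte markers summed to at most 15.9 CPM.

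Complement is a cascade of plasma and tissue proteins that marks surfaces for uptake, recruits leukocytes and can form pores in membranes. C1q, built of A, B and C chains, starts the classical pathway by binding antibody or damaged surfaces. C4 and C2 then form the convertase that cleaves C3, while factor B, encoded by Cfb, forms the convertase of the alternative pathway. Cleavage of C3 and C5 releases small peptides, C3a and C5a, which act on the receptors encoded by C3ar1 and C5ar1 on myeloid cells. The liver makes most circulating components, whereas C1q comes largely from macrophages and dendritic cells.

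Several of the genes are neighbours, with coordinates from GENCODE M21 on the GRCm38 assembly (mm10). C1qa (chr4:136895917-136898803), C1qc (chr4:136889804-136893065) and C1qb (chr4:136880129-136886187) lie side by side on the minus strand, with 2851 and 3616 bases between them. C2 (chr17:34862604-34898265) and Cfb (chr17:34856374-34862518) are separated by 85 bases, and C4b (chr17:34728380-34743882) lies 112491 bases from Cfb in the same stretch of the major histocompatibility region. C3 lies far away on the same chromosome (chr17:57203970-57228136), C3ar1 on chromosome 6 (chr6:122847138-122856161) and C5ar1 on chromosome 7 (chr7:16246743-16259540). All 9 genes are on the minus strand. The annotated gene Gm20547 spans parts of both C2 and Cfb on the same strand, Zbtb12 lies opposite C2, and C4b has a near-identical copy, C4a (chr17:34809092-34823464). Gm20547 was not among the gene symbols of the deposited tables. Zbtb12 was among them, as were the microRNA genes Mir6972 within Cfb and Mir6978 within C3. Values of C2, C3, Cfb and C4b are uncertain to the extent of these overlaps and of the copy. The labels state neither the strand used in counting nor the treatment of reads shared between genes.

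The promoter sequences of a starter of the cascade, of the central component and of a receptor are shown as examples of these roles. Each is the 250 bases before the start site of the gene on the minus strand, from RefSeq on GRCm38.p6. Capitals mark matches on either strand to an NF-kB core, which is GGG and CC with 5 bases of any kind between them, or to a C/EBP core, TTNCNNAA, where N is any base.
C1qb, chr4:136886201-136886450: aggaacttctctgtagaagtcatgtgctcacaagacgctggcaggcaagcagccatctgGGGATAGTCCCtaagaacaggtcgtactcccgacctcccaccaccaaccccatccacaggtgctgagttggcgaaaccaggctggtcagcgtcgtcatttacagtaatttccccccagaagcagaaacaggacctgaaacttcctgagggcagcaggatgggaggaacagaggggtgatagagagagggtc
C3, chr17:57228137-57228386: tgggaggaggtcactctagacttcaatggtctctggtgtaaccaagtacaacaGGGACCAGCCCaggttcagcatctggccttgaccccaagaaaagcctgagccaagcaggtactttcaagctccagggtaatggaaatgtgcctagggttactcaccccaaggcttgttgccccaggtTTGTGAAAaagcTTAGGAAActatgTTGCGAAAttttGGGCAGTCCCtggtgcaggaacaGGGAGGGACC
C3ar1, chr6:122856158-122856407: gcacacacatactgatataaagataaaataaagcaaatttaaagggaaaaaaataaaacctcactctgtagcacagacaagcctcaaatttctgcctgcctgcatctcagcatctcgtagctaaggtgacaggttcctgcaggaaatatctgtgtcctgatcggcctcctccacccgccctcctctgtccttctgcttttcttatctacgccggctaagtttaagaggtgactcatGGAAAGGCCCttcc
In C1qb the capitals are 2 overlapping matches to the NF-kB letters, 191 to 181 bases before the start. The C3 window held 3 matches to the C/EBP letters, the nearest ending 38 bases before the start, and 4 matches to the NF-kB letters, of which 2 overlap at 197 to 187 bases. C3ar1 had 1 NF-kB match at 14 to 5 bases. No match to an interferon-stimulated response element core (GAAA and GAAA with 2 bases of any kind between them) or a STAT core (TTCNNNGAA) was in these windows. Among 32526 promoters of the same length, 46.0% held the NF-kB letters, 36.8% the C/EBP letters, 7.04% the STAT letters and 2.98% the interferon letters. The promoter table held 5 of the 9 genes, and C1qa, C2, C4b and Cfb were not among them. Of those held but not shown, C5ar1 had a C/EBP match at 157 to 150 bases before the start and no NF-kB match. C1qc had a C/EBP match at 81 to 74 bases and overlapping NF-kB matches at 41 to 31 bases. Whether any match bears on the levels of these genes was not tested.

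Per length of transcript, as FPKM values deposited by the authors, the C1q chains were the most abundant of the 9 genes. The median over the 10 libraries was 109 FPKM for C1qb, 101 for C1qa, 81.4 for C1qc, 63.8 for C3, 39.5 for C4b, 17.1 for Cfb, 5.84 for C2, 4.0 for C5ar1 and 2.04 for C3ar1. C1qb exceeded C1qa, C1qa exceeded C1qc, C3 exceeded C4b, Cfb exceeded C2 and C5ar1 exceeded C3ar1 in 10 of 10 libraries. C1qc exceeded C3 in only 6 of 10, so these neighbours in the order did not differ beyond their spread. C4b exceeded Cfb in 9 of 10 and C2 exceeded C5ar1 in 7 of 10. The spread over libraries, as the highest over the lowest CPM of a gene, was 9.97-fold for C3, 9.26-fold for C5ar1, 7.11-fold for Cfb, 5.13-fold for C3ar1 and 4.75-fold for C4b. It was 3.39-fold for C1qc, 3.38-fold for C1qb, 2.98-fold for C1qa and 2.93-fold for C2. The lowest count behind any of these values was 98, for C3ar1 in uninvolved skin of mouse 2237.

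The design first sets lesional skin against the uninvolved skin of the same animal. Over all 5 mice, the receptors C5ar1 and C3ar1 were the members with the largest fitted lesional changes, and the components showed no shared direction. C5ar1 was higher in lesional skin of 5 of 5 mice and C3ar1 in 4 of 5, with log2 changes of 0.83 ± 0.25 and 0.87 ± 0.31 (SE). Neither passed the false discovery rate (FDR) of 0.05 in edgeR's quasi-likelihood test over all 16083 genes, with adjusted p = 0.135 for C5ar1 and 0.173 for C3ar1. In that comparison 0 of the 9 members and 8 of all genes were called, a background of 0.0497%. At an unadjusted p under 0.05, 2 of 9 members were higher and 0 lower, against 10.1% of all genes higher and 11.5% lower. The fitted change was positive for 6 of 9 members, against 49.4% of all genes, and the median log2 change of the members was 0.05, against -0.01 over all genes tested. DESeq2 called 1 member, C5ar1 (log2 change 0.85 ± 0.28, adjusted p = 0.0259), and gave C3ar1 an adjusted p of 0.0554.

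**Figure D1:**
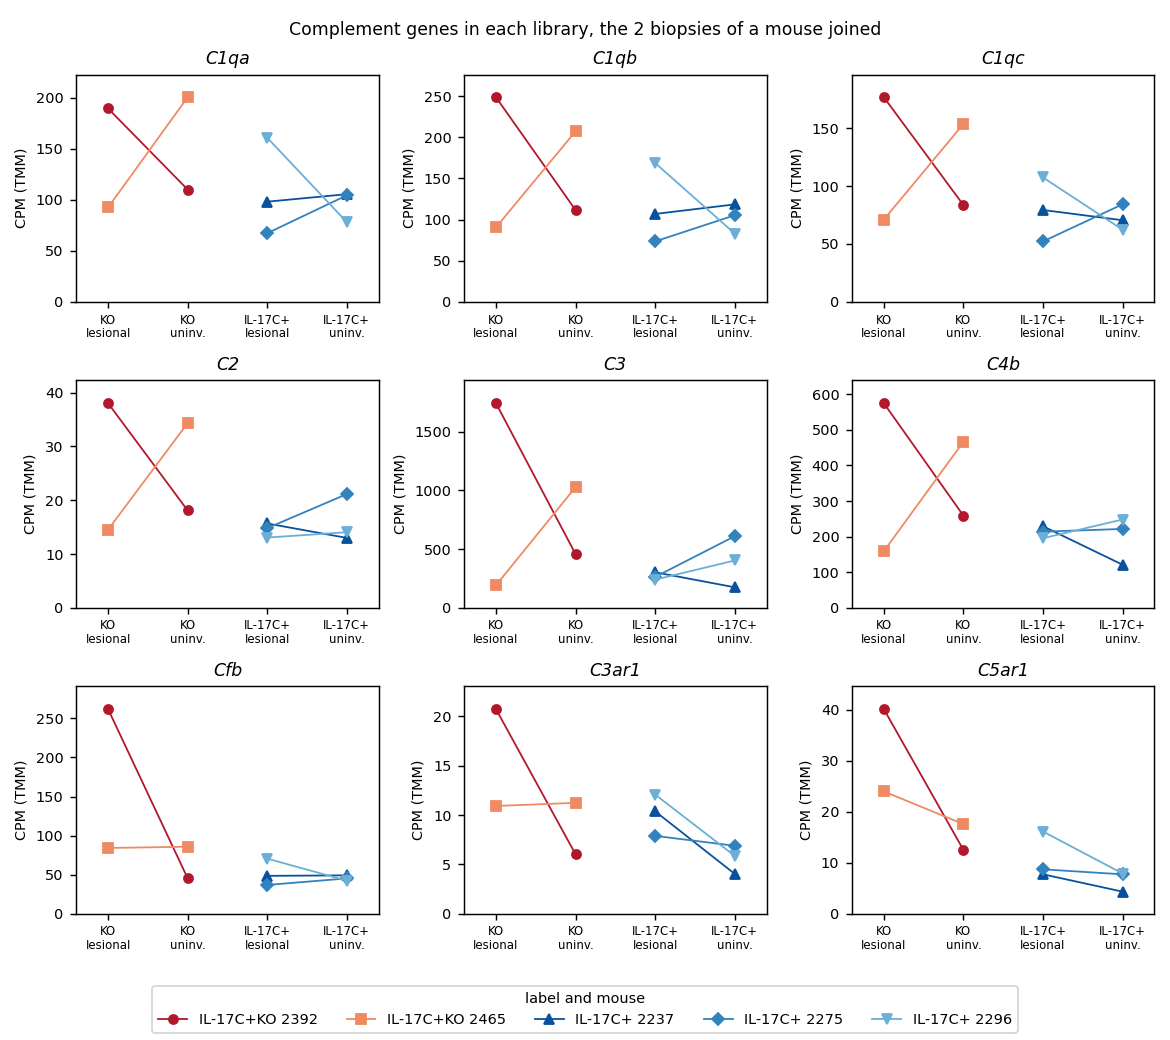
CPM scaled by TMM (vertical axes, from 0) of each complement gene in each of the 10 libraries, with the lesional and uninvolved biopsies of a mouse joined by a line. For most components the lines of the 2 mice labelled IL-17C+KO cross, whereas all 5 C5ar1 lines fall toward uninvolved skin.

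C5ar1 encodes the receptor for C5a, a strong attractant of neutrophils. In the mice labelled IL-17C+KO it had 40.1 (mouse 2392) and 24.0 CPM (2465) in lesional skin, against 12.5 and 17.6 CPM in uninvolved skin. The 3 mice labelled IL-17C+ had 7.73, 8.71 and 16.1 CPM in lesional skin, against 4.33, 7.73 and 7.89 CPM in uninvolved skin. Lesional skin was the higher biopsy within every mouse, and 9.12% of all genes were higher in 5 of 5 mice. Between mice the skin types overlapped, since 2 lesional libraries labelled IL-17C+ lay below both uninvolved libraries labelled IL-17C+KO. The mouse with the smallest difference was 2275, at 0.17 on the log2 scale, and the mouse with the largest was 2392, at 1.67. An exact two-sided sign-flip permutation test over the 5 mice gave p = 0.0625, the smallest that this design allows. With single mice left out, the fitted change ranged from 0.62 to 0.99. By label, the log2 change was 1.06 ± 0.42 (adjusted p = 0.346, 2 mice) for IL-17C+KO and 0.68 ± 0.34 (adjusted p = 0.795, 3 mice) for IL-17C+ in edgeR's test.

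C3ar1 encodes the receptor for C3a and was the least abundant of the 9 genes. It had 20.7 and 10.9 CPM in lesional skin of mice 2392 and 2465 labelled IL-17C+KO, against 6.03 and 11.2 CPM in their uninvolved skin. Under the label IL-17C+ it had 10.4, 7.89 and 12.1 CPM in lesional skin, against 4.04, 6.89 and 5.87 CPM in uninvolved skin. All 3 mice labelled IL-17C+ had more in lesional skin, while mouse 2465 had nearly equal values. The nearest lesional and uninvolved libraries labelled IL-17C+ had 7.89 and 6.89 CPM. At least 4 of 5 mice were higher for 29.6% of all genes. The exact two-sided sign-flip permutation test gave p = 0.125 over 5 mice. By label, edgeR gave a log2 change of 0.87 ± 0.55 (adjusted p = 0.548) for IL-17C+KO and 0.87 ± 0.44 (adjusted p = 0.795) for IL-17C+. Without mouse 2392 the change for IL-17C+KO was -0.05, and without mouse 2465 it was 1.78.

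Markers of macrophages and neutrophils had positive fitted lesional changes, as the receptors had, whereas most of those of dendritic and Langerhans cells had negative ones. Over the 5 mice, 10 of 10 macrophage markers had a positive lesional change in the fit, 3 of them at an unadjusted p under 0.05, and 8 of 8 neutrophil markers measured were positive, 7 of them at that threshold. Among all genes 49.4% were positive, and at that threshold 10.1% were higher and 11.5% lower. Of the 5 dendritic and Langerhans cell markers 1 was positive and 4 were negative, with Flt3 (log2 change 0.98 ± 0.24) and Cd207 (-1.29 ± 0.30) at an unadjusted p under 0.05. None of these 3 lists had a marker past the FDR of 0.05. The macrophage markers summed to 652 to 1212 CPM in lesional and 405 to 562 CPM in uninvolved skin labelled IL-17C+KO. They summed to 401 to 738 CPM in lesional and 275 to 355 CPM in uninvolved skin labelled IL-17C+. The neutrophil markers summed to 318 to 368 CPM in lesional and 14.3 to 42.1 CPM in uninvolved skin labelled IL-17C+KO. They summed to 35.6 to 493 CPM in lesional and 13.4 to 56.3 CPM in uninvolved skin labelled IL-17C+. The dendritic and Langerhans cell markers summed to 22.6 to 48.9 CPM in lesional and 39.96 to 47.6 CPM in uninvolved skin labelled IL-17C+KO, and to 12.9 to 26.0 CPM in lesional and 22.3 to 52.7 CPM in uninvolved skin labelled IL-17C+. No marker of these 3 lists was at 0 in all libraries of any group. In bulk skin, more cells of a type and more RNA per cell cannot be told apart, and the part of cell composition in the receptor values was not tested.

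**Figure D2:**
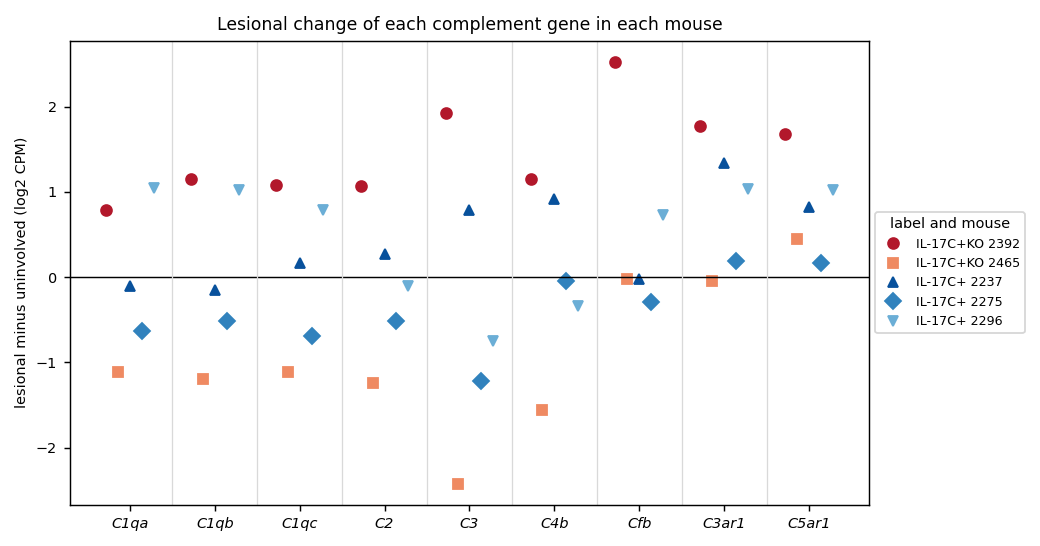
Difference of log2 CPM between the lesional and the uninvolved biopsy of each mouse (vertical axis), for each of the 9 genes. Mouse 2392 lies above 0 for 9 of 9 genes and mouse 2465 below 0 for 8 of 9, and C5ar1 is the gene whose 5 points are all above 0.

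For the components, the 2 mice labelled IL-17C+KO differed in opposite directions. In mouse 2392 all 9 members were higher in lesional skin, with a median log2 difference of 1.15, where 48.7% of all genes were higher. In mouse 2465 only C5ar1 was higher and 8 were lower, with a median of -1.12, where 50.1% of all genes were higher. Of all genes tested, 15.4% were higher in mouse 2392 and lower in mouse 2465, as were 8 of the 9 members. Among the mice labelled IL-17C+, 6 members were higher in mouse 2237 (median 0.27), 2 in mouse 2275 (median -0.51) and 6 in mouse 2296 (median 0.79), with backgrounds of 49.1%, 49.8% and 48.4%. The lesional change averaged over mice of a label therefore hides differences between mice that are larger than the average for most components.

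C3, the central component on which the pathways converge, had the widest spread. It had 1743 CPM in lesional and 458 CPM in uninvolved skin of mouse 2392, but 192 CPM in lesional and 1028 CPM in uninvolved skin of mouse 2465, both labelled IL-17C+KO. Lesional and uninvolved skin labelled IL-17C+ overlapped, with 303, 263 and 239.6 CPM of C3 in lesional skin, against 175, 609.6 and 403 CPM in uninvolved skin. The single lesional library of mouse 2392 was the highest of all 10, and the 3 lesional libraries labelled IL-17C+ lay close together. Over 5 mice the log2 change was -0.36 ± 0.64 (adjusted p = 0.785 in edgeR's test), with lesional skin higher in 2 of 5 mice (exact two-sided sign-flip permutation p = 0.688). Without mouse 2465 the change was 0.17, and without mouse 2392 it was -0.91.

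Markers of fat, muscle and connective tissue also differed between the same biopsies. The sum of the adipocyte markers in mouse 2465 was 129.9 CPM in lesional and 1325 CPM in uninvolved skin, and in mouse 2392 it was 1194 CPM in lesional and 820.3 CPM in uninvolved skin. For the mice labelled IL-17C+ it was 474, 412 and 451 CPM in lesional skin, against 642, 938 and 698 CPM in uninvolved skin. All 4 adipocyte markers had a negative lesional change over the 5 mice, 0 of them at an unadjusted p under 0.05, and none was at 0 in all libraries of a group. C3 and the adipocyte sum were higher in lesional skin of mouse 2392 and lower in that of mice 2465, 2275 and 2296, while in mouse 2237 C3 was higher and the sum was lower. The 4 skeletal muscle markers differed more widely. They summed to 2048 and 375 CPM in lesional skin of mice 2392 and 2465, against 17226 and 25475 CPM in their uninvolved skin, and to 3292, 2186 and 1640 CPM in lesional skin labelled IL-17C+, against 4351, 20558 and 7911 CPM in uninvolved skin. The muscle sum was lower in lesional skin of 5 of 5 mice, and all 4 markers had a negative change at an unadjusted p under 0.05. Among all genes 9.75% were lower in 5 of 5 mice and 11.5% were lower at that threshold. The 6 fibroblast markers summed to 8322 and 29181 CPM in lesional skin of mice 2392 and 2465, against 2681 and 3777 CPM in uninvolved skin, and to 5600 to 12905 CPM in lesional skin labelled IL-17C+, against 2398 to 4029 CPM in uninvolved skin. All 6 had a positive change, 5 of them at that threshold, as did all 5 mast cell markers, each at that threshold, and no marker of these lists passed the FDR. Among all genes 49.4% were positive and 10.1% were higher at that threshold. The muscle sum was lower and the fibroblast sum higher in lesional skin of both mice 2392 and 2465. The part of fat, muscle and connective tissue in the C3 values and in those of the other components was not tested.

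C4b and C2, which together form the classical convertase, followed the same pattern in the mice labelled IL-17C+KO. C4b had 575 CPM in lesional and 259 CPM in uninvolved skin of mouse 2392, and 159 CPM in lesional and 467 CPM in uninvolved skin of mouse 2465. Under the label IL-17C+, C4b had 229, 214 and 195 CPM in lesional skin, against 121, 222 and 248 CPM in uninvolved skin. As for C3, mouse 2237 was the only one of these 3 with more C4b in lesional skin. C2 had 38.0 CPM in lesional and 18.1 CPM in uninvolved skin of mouse 2392, and 14.5 CPM in lesional and 34.3 CPM in uninvolved skin of mouse 2465. In the mice labelled IL-17C+, C2 stayed within 13.1 to 15.7 CPM in lesional skin and 13.0 to 21.1 CPM in uninvolved skin, and the groups overlapped. Over 5 mice the log2 changes were 0.04 ± 0.40 for C4b and -0.10 ± 0.33 for C2 (adjusted p = 0.966 and 0.884 in edgeR's test). The sign of both changed with the mouse left out, over -0.25 to 0.42 for C4b and -0.40 to 0.18 for C2. The lowest values were without mouse 2392 and the highest without mouse 2465. The ratio of C4b to its copy C4a stayed within 4.44 to 4.95 in all libraries, and reads shared between the copies cannot be told apart.

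Cfb, whose product cleaves C3 as part of the alternative convertase, differed from its neighbour C2. It had 262 CPM in lesional and 45.4 CPM in uninvolved skin of mouse 2392, and 84.2 CPM in lesional and 85.7 CPM in uninvolved skin of mouse 2465, both labelled IL-17C+KO. The libraries labelled IL-17C+ had 48.5, 36.8 and 70.5 CPM in lesional skin, against 49.1, 45.2 and 42.4 CPM in uninvolved skin. Only mice 2392 and 2296 had more in lesional skin, and in the other 3 the biopsies differed by less than 0.30 on the log2 scale. The log2 change was 1.25 ± 0.65 (adjusted p = 0.471) in mice labelled IL-17C+KO and 0.14 ± 0.49 (adjusted p = 0.957) in mice labelled IL-17C+, by edgeR's test. For IL-17C+KO it was -0.03 without mouse 2392 and 2.53 without mouse 2465. Within each library, the ratio of Cfb to C2 was 6.88 and 5.79 in lesional skin of mice 2392 and 2465, against 2.51 and 2.50 in their uninvolved skin. With the label IL-17C+ the ratio was 3.09, 2.49 and 5.40 in lesional skin, against 3.78, 2.14 and 3.02 in uninvolved skin. The ratio was higher in lesional skin in 4 of 5 mice, the exception being mouse 2237. It was 1 of several ratios computed, and the share of other gene ratios that differ in this way was not determined. Of single genes, 29.6% were higher in at least 4 of 5 mice.

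**Figure D3:**
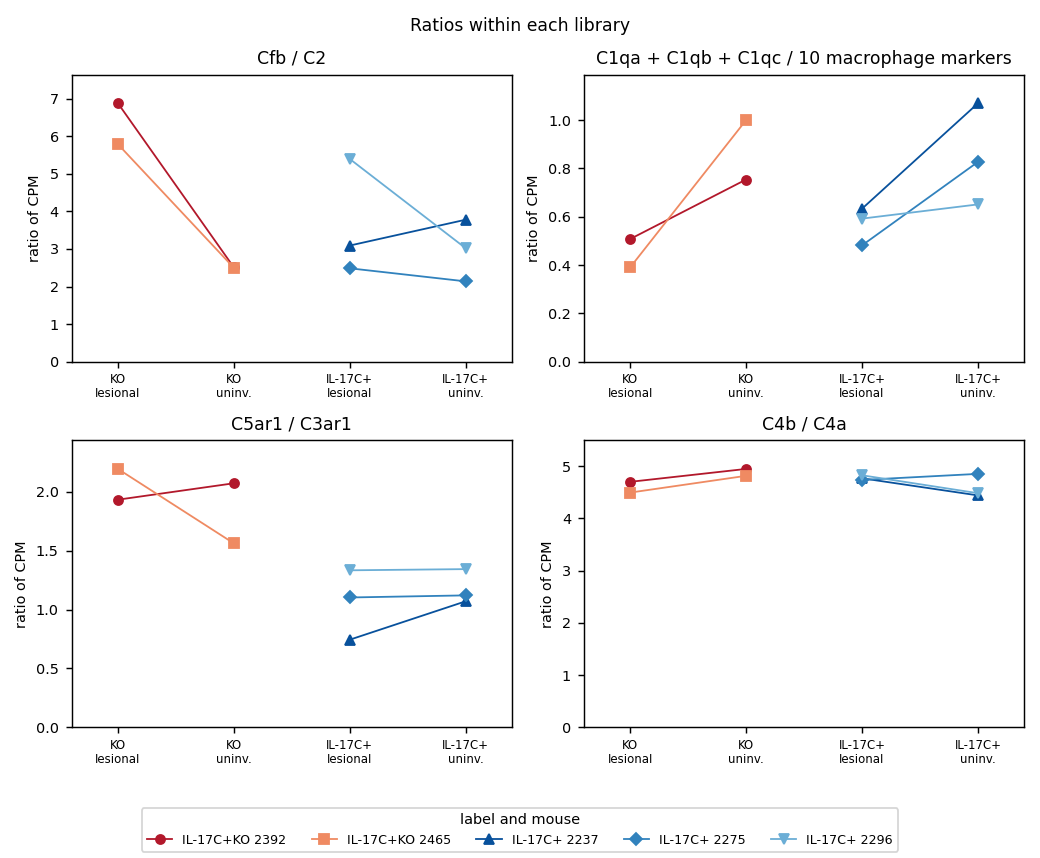
Ratios of CPM within each library (vertical axes, from 0), with the 2 biopsies of a mouse joined. The sum of the C1q chains relative to the 10 macrophage markers is lower in lesional skin of 5 of 5 mice, Cfb relative to C2 is higher in 4 of 5, C5ar1 relative to C3ar1 is higher in every library labelled IL-17C+KO than in any labelled IL-17C+, and C4b relative to C4a varies little. The share of other gene ratios with such patterns was not determined.

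The C1q chains varied together and showed no common lesional change. C1qa, C1qb and C1qc took 30.8 to 36.8%, 35.6 to 40.4% and 23.9 to 28.7% of their summed CPM in the 10 libraries, while the sum itself ranged from 193 to 615 CPM. C1qb, the most abundant chain, had 249 and 90.5 CPM in lesional skin of mice 2392 and 2465, labelled IL-17C+KO, against 112 and 207 CPM in their uninvolved skin. In those labelled IL-17C+, C1qb had 107, 73.5 and 169 CPM in lesional skin, against 118, 105 and 83.1 CPM in uninvolved skin. Lesional skin was higher in mice 2392 and 2296 and lower in the other 3, and the groups overlapped. C1qa ranged from 67.3 to 201 CPM and C1qc from 52.2 to 177 CPM, with the same lowest library, lesional skin of mouse 2275. Over 5 mice the log2 changes were -0.01 ± 0.34 for C1qa, 0.06 ± 0.37 for C1qb and 0.05 ± 0.35 for C1qc (adjusted p = 0.994, 0.940 and 0.948 in edgeR's test). The sign of each changed with the mouse left out, over -0.27 to 0.27 for C1qa, -0.22 to 0.38 for C1qb and -0.22 to 0.34 for C1qc.

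Relative to the sum of the 10 macrophage markers, C1q was lower in lesional skin. The summed CPM of the 3 chains divided by that of the 10 macrophage markers was 0.507 and 0.390 in lesional skin of mice 2392 and 2465, against 0.754 and 0.9999 in their uninvolved skin. Mice labelled IL-17C+ had ratios of 0.633, 0.481 and 0.592 in lesional skin, against 1.07, 0.827 and 0.651 in uninvolved skin. All 5 lesional values were below all 5 uninvolved values, the nearest being 0.633 and 0.651. The share of other gene ratios that separate in this way was not determined. The markers in the sum did not change alike. For IL-17C+KO the fitted lesional log2 change was 2.70 ± 0.81 for Cd14 but 0.13 ± 0.52 for Adgre1. A ratio shows that the genes changed unequally and not which of them changed.

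The second question is whether the lesional change differs between the labels. For none of the 9 genes was such a difference detected, and 0 of 16083 genes passed the FDR of 0.05, a background of 0.0%. The log2 difference of the lesional changes, IL-17C+KO minus IL-17C+, was 1.11 ± 0.81 for Cfb (unadjusted p = 0.215, adjusted p = 1) in edgeR's test. It was 0.38 ± 0.54 for C5ar1, 0.16 ± 1.49 for C3 and -0.37 ± 0.89 for C4b, and the other 5 lay between -0.26 and 0.03. At an unadjusted p under 0.05, 0 members differed, against 0.572% of all genes with a positive and 0.597% with a negative difference. The difference was positive for 5 of 9 members, against 50.0% of all genes. Leaving out mouse 2392 or 2465 moved these values widely, as for C3, which was -2.02 without mouse 2392 and 2.33 without mouse 2465.

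Each label was also tested alone. For IL-17C+KO, edgeR called 2 of 16083 genes, Cxcl5 and Csrp3, a background of 0.0124%, and 0 of the 9 members. At an unadjusted p under 0.05, 1 member, C5ar1, was higher and 0 were lower, against 6.16% of all genes higher and 7.31% lower. The fitted change was positive for 3 of 9 members, against 50.2% of all genes. For IL-17C+, 0 genes were called, a background of 0.0%, and 0 members had an unadjusted p under 0.05, against 3.54% of all genes higher and 2.87% lower. Here 7 of 9 members were positive, against 48.5% of all genes. These 2 tests share 1 fit and 1 estimate of the spread.

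The third question is whether the labels differ within a skin type. In lesional skin the fitted difference, IL-17C+KO minus IL-17C+, was positive for 9 of 9 members, where 50.7% of all genes were positive, and the median was 0.81 against 0.01 over all genes tested. None of the 15691 genes passed the FDR of 0.05, a background of 0.0%. At an unadjusted p under 0.05, 2 members, C5ar1 and Cfb, were higher and 0 lower, against 4.77% of all genes higher and 2.53% lower. The libraries labelled IL-17C+KO lay above all 3 labelled IL-17C+ for the same 2 members, where 11.7% of all genes did so, and below them for 0 members, against 13.3% of all genes.

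C5ar1 averaged 32.05 ± 11.4 CPM in lesional skin labelled IL-17C+KO (SD, n = 2) and 10.9 ± 4.59 CPM in that labelled IL-17C+ (SD, n = 3). The log2 difference was 1.59 ± 0.40, with adjusted p = 0.577 in edgeR's test and 0.0355 in DESeq2, and it ranged from 1.18 to 1.96 with single mice left out. For Cfb the means were 173 ± 126 CPM in lesional skin labelled IL-17C+KO (n = 2) and 51.9 ± 17.1 CPM in that labelled IL-17C+ (n = 3, SD). The log2 difference of Cfb was 1.76 ± 0.52, with adjusted p = 0.586 in edgeR's test and 0.0715 in DESeq2. It was 0.73 without mouse 2392 and 2.34 without mouse 2465. In exact two-sided permutation tests of 2 mice against 3, p was 0.2 for C5ar1 and 0.1 for Cfb, where 0.1 is the smallest possible.

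The other members of the lesional comparison rested on 1 mouse. C3 had a log2 difference of 1.87 ± 0.82 (adjusted p = 0.719 in edgeR's test), and without mouse 2392 it was -0.45. Without that mouse C1qa was -0.20, C1qb -0.33, C1qc -0.13 and C4b -0.39, against fitted values of 0.40, 0.57, 0.67 and 0.81 with it. C2 was 0.03 and C3ar1 0.14 without mouse 2392, against 0.88 and 0.67 with it. The median over the 9 members was -0.13 without mouse 2392 and 1.39 without mouse 2465.

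**Figure D4:**
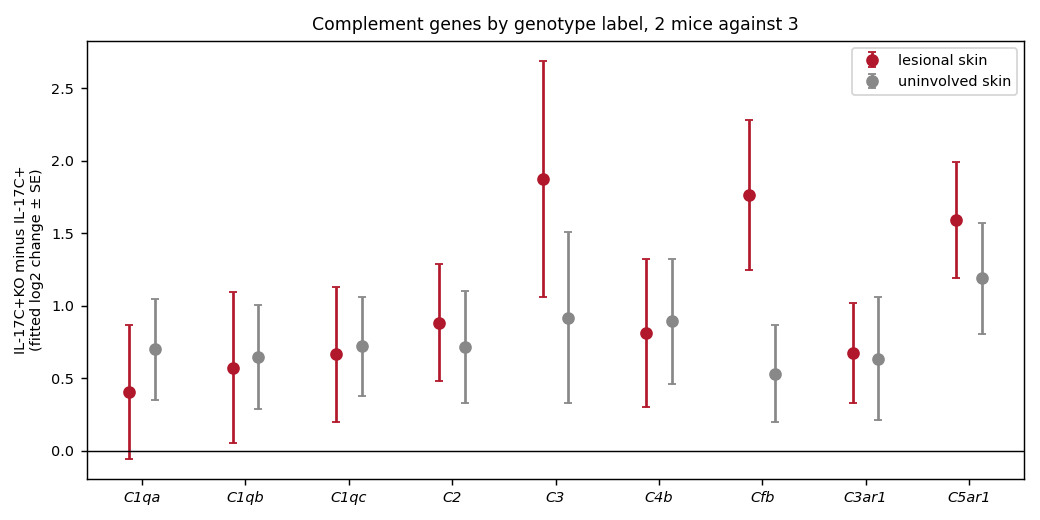
Fitted log2 difference between skin labelled IL-17C+KO and skin labelled IL-17C+ (vertical axis, points with SE bars, 2 mice against 3), for lesional and uninvolved skin. All 18 points are above 0, and none passed the FDR of 0.05 in edgeR's test.

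In uninvolved skin the difference was also positive for 9 of 9 members, with 48.9% of all genes positive, a median of 0.71 for the members and -0.01 over all genes tested. None of 15568 genes passed the FDR of 0.05, a background of 0.0%, and 1 member, C5ar1, had an unadjusted p under 0.05, against 1.91% of all genes higher and 1.82% lower. C5ar1 averaged 15.0 ± 3.58 CPM in uninvolved skin labelled IL-17C+KO (SD, n = 2) and 6.65 ± 2.01 CPM in that labelled IL-17C+ (SD, n = 3). Its log2 difference was 1.19 ± 0.38 (adjusted p = 0.849 in edgeR's test), and 0.92 to 1.41 with single mice left out. The libraries labelled IL-17C+KO lay above all 3 labelled IL-17C+ for C5ar1, C1qa and C4b, where 10.4% of all genes did so, and below them for 0 members, against 10.7% of all genes. C1qa had 110.1 and 201 CPM in mice 2392 and 2465, against 106, 104 and 78.2 CPM in mice 2237, 2275 and 2296, so the nearest libraries of the labels were close. C4b had 259 and 467 CPM, against 121, 222 and 248 CPM. Here mouse 2465 carried the larger share: the median over members was 0.21 without it and 1.09 without mouse 2392. The lesional and uninvolved comparisons of labels use the same 5 mice.

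Relative to C3ar1, C5ar1 separated the labels in both skin types. The ratio of C5ar1 to C3ar1 was 1.93 and 2.196 in lesional and 2.07 and 1.56 in uninvolved skin of mice 2392 and 2465, labelled IL-17C+KO. It was 0.745, 1.103 and 1.33 in lesional and 1.07, 1.12 and 1.34 in uninvolved skin of mice 2237, 2275 and 2296, labelled IL-17C+. Every library labelled IL-17C+KO exceeded every library labelled IL-17C+, the nearest being 1.56 and 1.34. The 2 biopsies of a mouse are not independent, and this was 1 of several ratios computed. The share of other ratios that separate the labels was not determined. Of single genes, 11.7% in lesional and 10.4% in uninvolved skin had both libraries labelled IL-17C+KO above all 3 labelled IL-17C+. Between the labels in lesional skin, 9 of 10 macrophage, 8 of 8 neutrophil and 5 of 5 dendritic and Langerhans cell markers were positive, where 50.7% of all genes were. In uninvolved skin 8 of 10 macrophage, 4 of 7 neutrophil and 4 of 5 dendritic and Langerhans cell markers were positive, where 48.9% of all genes were, and none passed the FDR in either skin type. The neutrophil sums given above overlapped between the labels in both skin types. All 3 endothelial markers were also positive in both skin types. The part of cell composition in the differences between labels was not tested.

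The genes most like each member were found by the root-mean-square difference of mean-centred log2 CPM over the 10 libraries among 11952 genes, as a description. How small a difference the nearest of so many genes would have for any gene was not determined. C4b was matched most closely by its copy C4a (0.05, against 0.63 for the spread of C4b itself). C1qa, C1qb and C1qc were closer to each other (0.11 for C1qa and C1qb, 0.13 for C1qc and C1qb) than to any gene outside the 9. Outside them, Sqrdl was nearest to C1qa (0.21) and C1qc (0.18), and Nnmt to C1qb (0.23). For Cfb the nearest were Mrc1 (0.22), Fcgr1 (0.23) and Lrrc25 (0.25). C3ar1 was nearest to Kcnab2 (0.15), Ctss (0.22) and Clec4a1 (0.23). C5ar1 was nearest to Spi1 (0.26), Slc11a1 (0.28) and Csf2rb (0.30). For C2 the nearest were Sh3tc1 (0.18), Gprc5b (0.21) and Alox5 (0.22). C3 had no close match, with Aoc3, Itga7 and Cd163 each at 0.42 against its own spread of 1.02. Further neighbours were Ms4a4d and Hfe for C1qa, Sqrdl and Gm21188 for C1qb, Fcgrt for C1qc, and Stard8 and Cmklr1 for C4b, at 0.23 to 0.24.

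Of 48 other complement genes listed, 47 were among the gene symbols and 36 were tested in the fit of 10 libraries. Over 5 mice 23 had a positive and 13 a negative lesional change, where 49.4% of all genes were positive. Their median was 0.11, and 0 passed the FDR of 0.05. At an unadjusted p under 0.05, 9 were higher and 4 lower, against the backgrounds of 10.1% and 11.5% of all genes. The other receptors had a positive fitted change for 6 of 6 tested, against 49.4% of all genes, with a median of 0.85 and 4 at that threshold. Single mice did not all follow. Itgam, Itgax, Itgb2 and Cd93 were higher in lesional skin of 5 of 5 mice, C5ar2 in 4 and Vsig4 in only 2. The regulators were split, with 8 of 15 positive. Among the 8 initiators tested 6 were positive, among the 3 other classical and alternative pathway genes 2, and among the 4 terminal pathway genes 1. Mbl1, Mbl2, C8a and C8b had no count in any library.

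**Figure D5:**
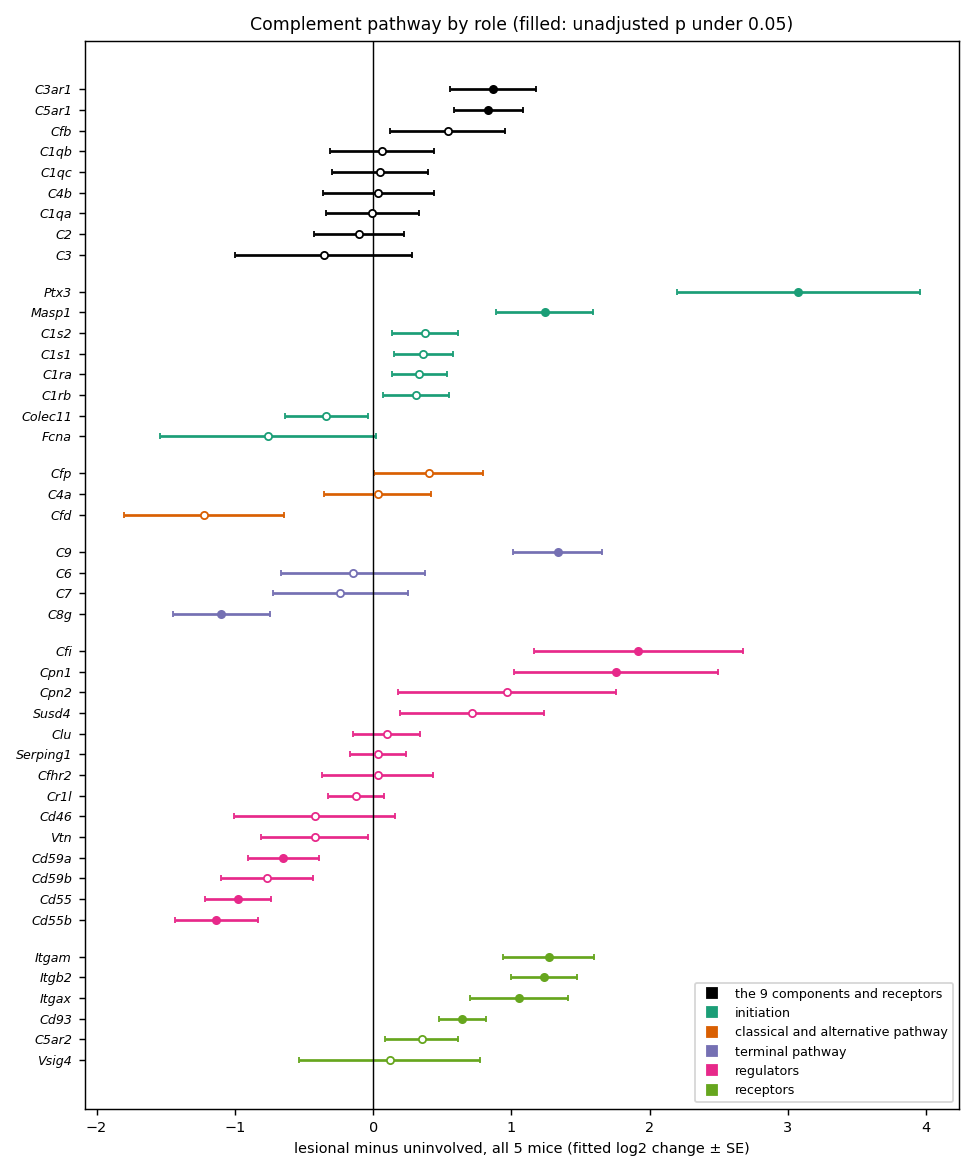
Fitted log2 change ± SE, lesional minus uninvolved, over 5 mice (horizontal axis) for the 9 complement genes and all but 1 of the 36 other complement genes tested, grouped by role. Filled points have an unadjusted p under 0.05, and the receptors, C5ar1 and C3ar1 among them, lie to the right of 0.

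The subunits of complement receptor 3, which binds fragments of C3, were high in lesional skin beside C5ar1. Itgb2, the shared beta chain, had 75.8 and 50.9 CPM in lesional skin of mice 2392 and 2465, against 20.7 and 25.9 CPM in uninvolved skin. In the mice labelled IL-17C+, Itgb2 had 33.5, 21.7 and 33.7 CPM in lesional skin, against 12.8, 16.4 and 11.5 CPM in uninvolved skin. It was higher in 5 of 5 mice, with a log2 change of 1.24 ± 0.24 (adjusted p = 0.0764 in edgeR's test). Itgam, the alpha chain, had 149 and 63.3 CPM in lesional skin of mice 2392 and 2465, against 24.8 and 27.8 CPM in uninvolved skin. With the label IL-17C+ it had 24.6, 20.3 and 41.9 CPM in lesional skin, against 11.3, 18.6 and 16.6 CPM in uninvolved skin. It was higher in 5 of 5 mice, with a change of 1.27 ± 0.33 (adjusted p = 0.116). Cd55, which speeds the decay of C3 convertases, was lower in lesional skin of 5 of 5 mice, as were 9.75% of all genes. It had 33.9 and 30.3 CPM in lesional skin of mice 2392 and 2465, against 55.6 and 93.5 CPM in uninvolved skin, and a change of -0.98 ± 0.24 over 5 mice (adjusted p = 0.108). C9, the pore-forming component, had a log2 change of 1.33 ± 0.32 (adjusted p = 0.105) from only 6 to 45 counts in a library.

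Ptx3, a soluble pattern recognition protein that binds C1q, had the largest difference between labels in lesional skin among the listed genes. It had 165 and 34.8 CPM in lesional skin of mice 2392 and 2465, labelled IL-17C+KO, against 1.26, 4.28 and 1.45 CPM in that of mice 2237, 2275 and 2296, labelled IL-17C+. In uninvolved skin Ptx3 had 2.14 and 2.30 CPM in the libraries labelled IL-17C+KO, against 0.413, 0.637 and 1.13 CPM in those labelled IL-17C+. Its log2 difference between the labels was 5.45 ± 0.89 in lesional skin (adjusted p = 0.4998 in edgeR's test) and 1.63 ± 0.54 in uninvolved skin (adjusted p = 0.849). The lesional changes of the labels differed by 3.52 ± 0.98 for Ptx3 (unadjusted p = 0.00992, adjusted p = 1). C1rb, a protease of the C1 complex, was higher by 1.16 ± 0.24 in lesional skin labelled IL-17C+KO (adjusted p = 0.555), with 46.1 and 28.3 CPM against 16.6, 16.8 and 17.6 CPM in that labelled IL-17C+. Fcna, a ficolin of macrophages that starts the lectin pathway, differed by 1.39 ± 0.34 in uninvolved skin (adjusted p = 0.849), with 41.7 and 50.3 CPM in the libraries labelled IL-17C+KO against 23.8, 15.2 and 13.7 CPM in those labelled IL-17C+. Between the labels, 23 of 35 other complement genes tested were positive in lesional skin, against 50.7% of all genes. In uninvolved skin 25 of 32 were positive, against 48.9%, and 0 passed the FDR in either. At an unadjusted p under 0.05 in edgeR's test, 9 were higher and 0 lower in lesional skin, against 4.77% and 2.53% of all genes. In uninvolved skin 10 were higher and 0 lower, against 1.91% and 1.82% of all genes.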

How the data were processed

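RNA from paired lesional and uninvolved biopsies of 5 mice was analysed from 10 deposited tables, grouped by the genotype, skin type and mouse number in the labels. Per the submitters' processing notes, the tools were TopHat2 2.0.12, Cufflinks 2.2.1, HTSeq and cutadapt 1.6, with the mm10 genome, and neither order nor settings are stated. Per the file headers, the deposited tables hold a count and an FPKM per gene symbol. The deposited counts are whole numbers with a different total in each library, and were taken as raw. The deposited FPKM values were used to order genes by level and in 1 alternative.

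Counts were tested in R 4.3.3 with edgeR 4.0.16 (filterByExpr, TMM, robust quasi-likelihood fits, Benjamini-Hochberg adjustment over all genes tested, FDR 0.05). Lesional and uninvolved skin were compared in fits over all 10 libraries, blocked by mouse, and labels within a skin type by 5 libraries from 5 mice. Standard errors come from the change and its F statistic. Log2 CPM used a prior count of 2. The script was tested on simulated counts. DESeq2 1.42.0 and limma 3.58.1 on log2(FPKM + 1) were alternatives.

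The mouse numbers in the labels and the design text pair the biopsies. Deviations from the group means correlated between biopsies of 1 mouse at -0.0723 in both mice labelled IL-17C+KO, where 2 mice give the same value by construction, and at -0.122, 0.0338 and -0.0697 in mice 2237, 2275 and 2296. The members and lists were chosen with earlier results of these data known. Other complement genes were named where they had the 4 smallest p over 5 mice or the 2 smallest in another comparison, and 3 genes most like each member, of at least 5 CPM on average, were named, except 1 gene that is not reported here. Promoters are from RefSeq (GRCm38.p6). The limit of 3 counts covers counting error only.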

Additional observations from a re-analysis of the deposited data

How the results depend on the processing

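No member was called by edgeR in any comparison under the main settings, and this held under every alternative except DESeq2, which called C5ar1 over 5 mice (1 member) and between the labels in lesional skin (1 member). The direction and the call of single members were unchanged in 471 of 540 alternatives, the call appeared in 2, and the direction changed in 67, of which 47 left out a mouse. C5ar1 kept its direction in every alternative over 5 mice and between the labels. The count of genes called depended strongly on the test. For lesional against uninvolved skin labelled IL-17C+KO, 2 genes were called in the main analysis, 1141 by DESeq2, 5 with no filter on low counts, 5 by limma on log2(FPKM + 1) and 0 with only the libraries of that label. For skin labelled IL-17C+ the 0 became 243 by DESeq2 and 3 by limma. Over 5 mice the 8 became 2020 by DESeq2 and 15 with no filter. For the difference of the lesional changes the 0 became 5 by DESeq2 and 1 by limma. Between the labels the 0 became 213 by DESeq2, 1 with no filter and 4 by limma in lesional skin, and 10 by DESeq2 and 10 by limma in uninvolved skin. The causes were not tested.

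Without the replicate block that pairs the biopsies of a mouse, 0 genes were called for IL-17C+KO and 769 over 5 mice. The log2 changes without the block were 0.089 for C1qb, 0.063 for C1qc, 0.0040 for C2, 0.38 for C3 and 0.017 for C4b in IL-17C+KO, and 0.052 for C1qa over 5 mice, each with the opposite sign to the paired value. It changed no call of a member.

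With single mice left out, 0 to 11 genes were called for IL-17C+KO, 0 to 1249 over 5 mice (1249 without mouse 2237) and 0 to 241 between the labels in uninvolved skin (241 without mouse 2275), and 0 in the other comparisons. The changes of sign gave log2 ranges of -1.12 to 0.78 for C1qa, -1.20 to 1.16 for C1qb, -1.12 to 1.08 for C1qc, -1.25 to 1.07 for C2, -2.43 to 1.93 for C3, -1.56 to 1.15 for C4b, -0.033 to 2.53 for Cfb and -0.048 to 1.78 for C3ar1 for IL-17C+KO. They were -0.35 to 0.47 for C1qa, -0.32 to 0.44 for C1qb, -0.25 to 0.48 for C1qc, -0.31 to 0.087 for C2, -0.98 to 0.024 for C3, -0.20 to 0.45 for C4b and -0.14 to 0.36 for Cfb for IL-17C+, and -0.27 to 0.27 for C1qa, -0.22 to 0.38 for C1qb, -0.22 to 0.34 for C1qc, -0.40 to 0.18 for C2, -0.91 to 0.17 for C3 and -0.25 to 0.42 for C4b over 5 mice. For the difference of the lesional changes they were -1.22 to 0.69 for C1qa, -1.31 to 1.04 for C1qb, -1.21 to 0.99 for C1qc, -1.13 to 1.19 for C2, -2.02 to 2.33 for C3, -1.73 to 0.98 for C4b, -0.17 to 2.39 for Cfb, -0.91 to 0.91 for C3ar1 and -0.24 to 0.9996 for C5ar1, and between the labels in lesional skin -0.20 to 0.80 for C1qa, -0.33 to 1.098 for C1qb, -0.13 to 1.15 for C1qc, -0.45 to 2.70 for C3 and -0.39 to 1.43 for C4b.

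The other changes of sign were of values near 0. For IL-17C+KO, limma gave 0.0051 for C1qa, 0.15 for C1qb, 0.16 for C1qc and 0.085 for C2, DESeq2 gave 0.0033 for C1qc, and RLE size factors gave 0.00026 for C1qb and 0.0042 for C1qc. Over 5 mice C1qa was 0.014 by DESeq2, 0.014 with RLE size factors and 0.13 by limma, and C2 was 0.030 by limma. The difference of the lesional changes of C3ar1 was -0.0020 by DESeq2, -3.4e-05 with RLE size factors and -0.022 with no filter. Scaling CPM by the library total in place of TMM gave mean differences over 5 mice of 0.10 for C1qa and 0.0041 for C2. The members had at least 98 counts in each library and C9 had 6 to 45. The part of depth in their errors was not tested.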
